A study of Homo sapiens with 12 samples.

Results

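The 22 genes described here are the protein-coding genes of the MCF-10A table that had reads in every MCF-10A library, outside a set of named gene families. They were chosen by their read counts in the libraries compared here: each had at least 10 reads in each of the 4 MCF-10A libraries. A member was annotated as protein coding, was not encoded in the mitochondrial genome, and had no symbol beginning with the letters of 10 families, which are keratins, kallikreins, small proline-rich proteins, SERPINB inhibitors, histones, claudins, large and small ribosomal proteins, ZNF zinc finger proteins and SLC carriers. It was also outside 3 gene ontology terms, for the extracellular matrix, for the humoral immune response, and for adhesion between cells through membrane molecules. Of the 2680 genes in the MCF-10A table, 1189 were coding, 1188 of those were nuclear, 1090 passed the family names, 978 passed the ontology terms, and 22 passed the read minimum. The 3 tables of the series held 3090 different genes.

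The study asked how passage through a narrow constriction changes the RNA of breast cells. MCF-10A is a non-malignant human breast epithelial line. The study's methods list it in a form that carries tagged PCNA and also as obtained from ATCC. The labels do not say which of these gave the libraries. MCF-10A was grown in DMEM/F12 with horse serum, insulin, EGF, cholera toxin and hydrocortisone. Constriction cells were drawn through channels 5 µm wide, 5 µm high and 150 µm long by a pressure of 7 to 33 cmH2O and collected on transit, and control cells had made no transit. There were 2 constriction and 2 control libraries, and the study's methods state that experiments were repeated for biological replicates; a supplementary table of the study pairs each constriction library with the control of the same number. The series holds the same 2 groups for MDA-MB-231, a triple-negative breast cancer line, and for LM2, its derivative that grows in the lung, which makes 12 libraries in 3 lines.

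Messenger RNA was captured by its poly-A tail and sequenced in bulk, so each value is an average over many cells. In such a library, fewer cells making a transcript and less of it per cell cannot be told apart. MCF-10A cells keep features of the basal layer of the breast epithelium, a tissue that seals ducts with junctions and adjusts the fluid in them with ion channels and the surface proteases that activate those channels. The members do not form a pathway: they include an epithelial protease of that kind, nuclear and mitochondrial proteins, secreted and membrane proteins, and genes best known from the testis or from blood cells.

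The constriction libraries held 29978695 reads (replicate 1) and 35494737 reads (replicate 2) in genes, and the control libraries held 36123663 and 46436989. The members took 11698 and 4364 reads of the constriction libraries and 6972 and 7161 reads of the controls, which were 0.0390%, 0.0123%, 0.0193% and 0.0154% of each total. The 2 constriction libraries therefore stood far apart in these genes before any comparison with the controls. Values below are normalised counts, that is, reads divided by a size factor per library (0.830 and 0.966 for constriction, 1.02 and 1.27 for control). Each log2 fold change is the log2 of the mean normalised count plus 1 in constriction minus the same in control. Its standard error (SE) comes from the spread of the 2 libraries in each group.

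The table was selected on the authors' own comparison of these 4 libraries, so each difference between the groups is a description and none was tested. An exact permutation test of 2 libraries against 2 could not go below p = 0.333. Among the members, 5 had a lower mean after transit, 22.7% beside 94.5% of the whole table, and 17 had a higher mean, 77.3% beside 5.49%. The groups did not overlap (each constriction library above each control, or each below) for 21 of 22 members (95.5%) beside 96.8% of the table. All 22 differed at least 2-fold, as did 100% of the table, where the difference closest to 0 was 2.37-fold. The median log2 fold change was 3.03 over the members and -4.05 over the table.

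The read minimum itself took part in these counts. In the table, 191 and 202 of 2680 genes had any read in the constriction libraries, against 2651 and 2648 in the controls. Of the 956 coding genes that met the rule in all but the minimum, 948 had 0 reads in some library and 888 had 0 reads in both constriction libraries. A gene with no reads after transit could not become a member. The nearest genes for comparison were the 53 other genes of the table with at least 10 reads in every library, of which 43 were noncoding genes or pseudogenes. Of those 53, 41 were higher and 12 lower after transit, or 77.4% higher, with a median log2 fold change of 2.73. Their groups did not overlap for 44 of 53 (83.0%), beside 21 of 22 members (95.5%). The share of higher genes among the members, 77.3%, was close to that of these neighbours. At a minimum of 50 reads, 8 members were left, 4 higher and 4 lower, with a median log2 fold change of 0.07.

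TMM scaling was an alternative to the size factors. It could be computed only over the selected genes of the table, and it divided the constriction libraries by 6.28 and 0.238, against size factors of 0.830 and 0.966, moving every gene of a library alike. Because its divisors for the constriction libraries lie far apart, it moves apart those libraries in genes where their normalised counts were close. A call that changes under it therefore says little about that gene alone. Under it, 14 of the 22 members (63.6%) had groups that did not overlap, beside 96.2% of the table and 30 of the 53 neighbours (56.6%). At least 2-fold differences were left in 19 members (86.4%), beside 99.9% of the table and 52 of the 53 neighbours (98.1%).

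**Figure D1:**
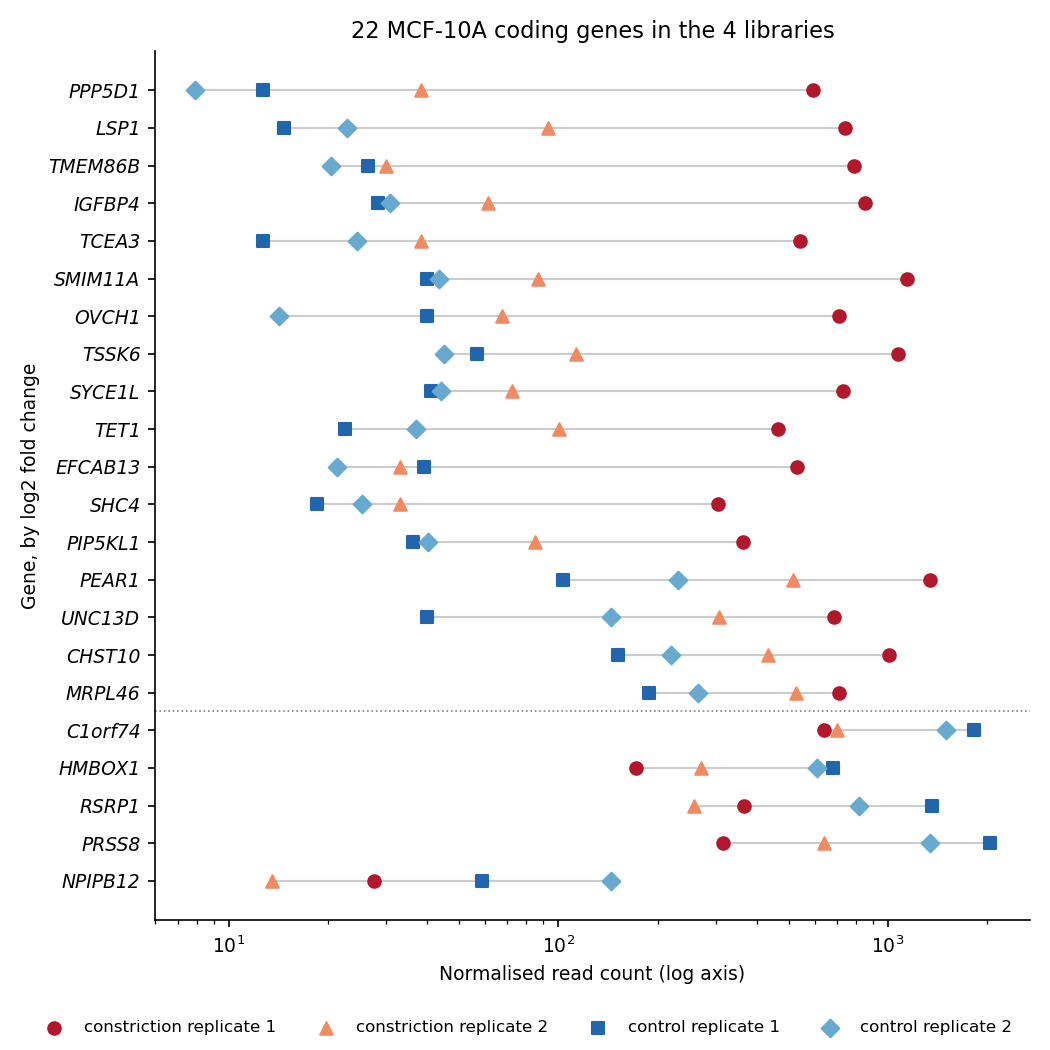
Normalised read count (log axis) of the 22 members in each of the 4 MCF-10A libraries, ordered by log2 fold change, with a line joining the lowest and highest library of each gene. Above the dotted line, constriction replicate 1 held 306 to 1339 normalised counts of every gene while constriction replicate 2 held 30.0 to 525; below it, all 5 genes had both constriction libraries under both controls.

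The replicate structure split the members. Constriction replicate 1 exceeded replicate 2 in 19 of 22 members and in each of the 17 that were higher after transit. Its normalised count was a median of 6.29 times that of replicate 2, from 0.491 to 26.2 times, and the ratio was above 3 in 13 members. Between the controls, the ratio of replicate 1 to replicate 2 had a median of 0.923, from 0.276 to 2.82. The same imbalance was present in the neighbours: 44 of the 53 other genes with 10 reads had more in constriction replicate 1, and 34 of them by over 3-fold.

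Among the 17 higher members, constriction replicate 1 was a median of 17.5 times the control mean (3.13 to 57.6) and constriction replicate 2 was a median of 2.22 times it (1.10 to 4.96). Replicate 2 alone lay above both controls in 16 of the 17 and at least 2-fold above their mean in 13. With replicate 2 alone, groups did not overlap for 21 of 22 members, beside 2633 of 2680 genes of the table and 48 of 53 neighbours. Without constriction replicate 1, the same 17 members were higher (2.39% of the table) and the same 5 lower (96.8% of the table). Of the 22, 18 (81.8%) then differed at least 2-fold, beside 97.5% of the table and 33 of the 53 neighbours (62.3%), and their median log2 fold change was 1.03. For the 53 neighbours the median without that library was 0.57, with 34 higher and 19 lower. The mean of each member thus lay on the same side with and without replicate 1, though for EFCAB13 replicate 2 lay between the controls. Each of the 17 higher members had a smaller log2 fold change without replicate 1. The drop ran from little (MRPL46, 1.44 to 1.21) to nearly the whole value (EFCAB13, 3.17 to 0.13). The deposited files hold no measure of RNA or library quality. A supplementary table of the study lists more RNA and more concentrated cells for the first MCF-10A experiment than for the second, in constriction and control alike. Within each experiment it lists less concentrated cells for constriction than for control. Constriction had less RNA than control in the first experiment and more in the second, so input also differed between the compared groups. The part of RNA amount, cell number or library quality in these values was not tested.

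**Figure D2:**
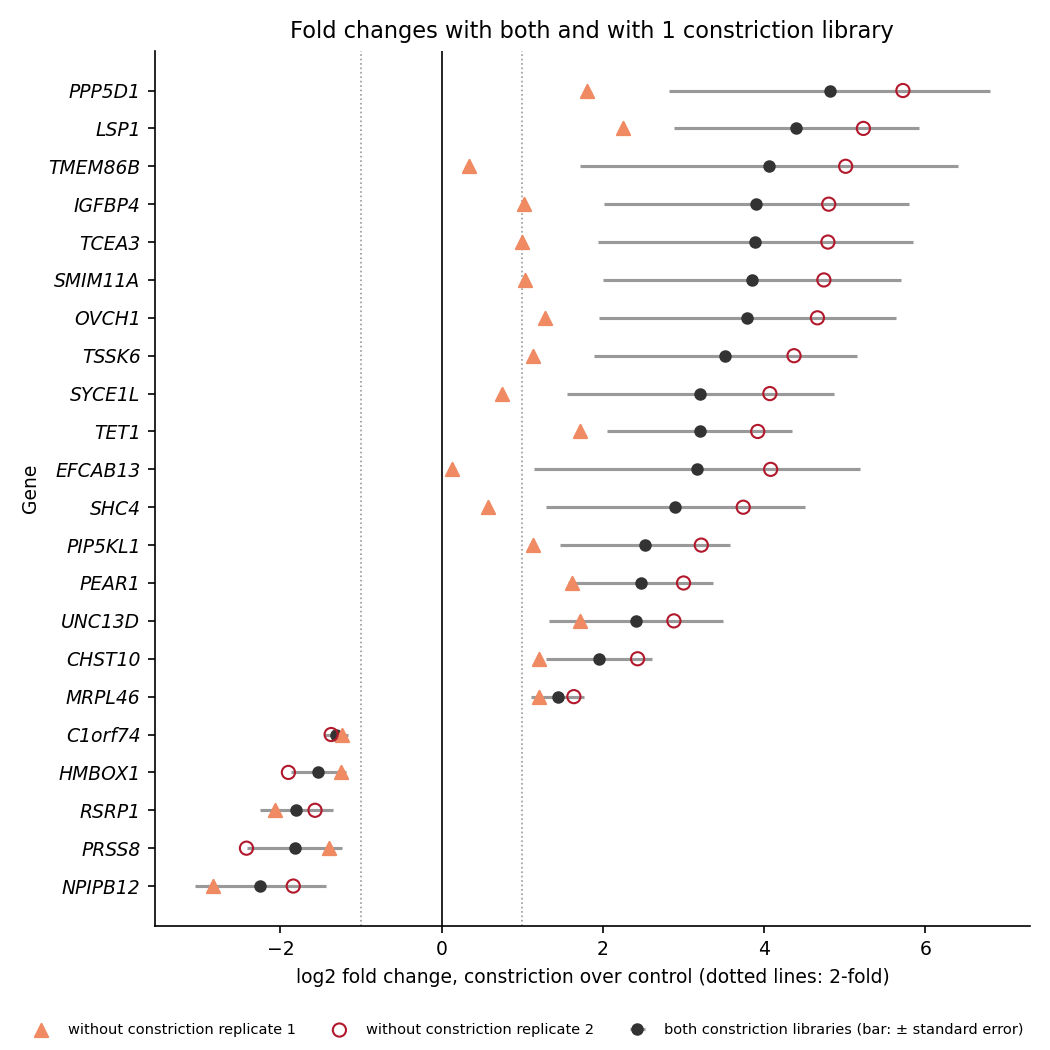
log2 fold change of each member with both constriction libraries (black, bar of 1 SE either way), without constriction replicate 1 (triangles) and without constriction replicate 2 (open circles); dotted lines mark 2-fold. The 13 members at the top have triangles from 0.13 to 2.25, left of their black points at 2.52 to 4.81, while the 5 members below 0 have all 3 points on one side.

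The 5 lower members had constriction libraries within 3-fold of each other. Under TMM scaling, PRSS8, C1orf74 and HMBOX1 had overlapping groups and less than a 2-fold difference, with log2 fold changes of -0.81, -0.65 and -0.67. RSRP1 and NPIPB12 kept their groups apart. That scaling moves apart constriction libraries that were close, so these calls do not rank the 5 genes. PRSS8 (ENSG00000052344, GRCh38 chr16:31131433-31135762) encodes prostasin, a serine protease anchored in the apical membrane of epithelia that raises the activity of the epithelial sodium channel. It had 315 and 641 normalised counts in the constriction libraries and 2039 and 1341 in the controls, from 261, 619, 2083 and 1699 reads. With size factors, both constriction libraries lay under both controls. The log2 fold change was -1.82 (SE 0.59, n = 2 per group), -1.40 without constriction replicate 1 and -2.42 without constriction replicate 2. An antisense gene, AC009088.3, shares 357 exonic bases with it on the other strand.

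C1orf74 (ENSG00000162757, chr1:209779208-209784559) is an uncharacterised gene. Its normalised counts were 640.1 and 701 after transit and 1818 and 1503 in the controls, from 531, 677, 1857 and 1904 reads. With size factors the groups did not overlap. The log2 fold change was -1.31 (SE 0.15), the smallest SE among the members. Of its 4684 exonic bases, 2284 are also exonic in TRAF3IP3 on the opposite strand, and the labels do not say whether the libraries kept the strand.

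The other 3 lower members are nuclear or of unsettled function. HMBOX1 (ENSG00000147421, chr8:28890394-29064764) encodes a homeobox protein that binds telomeric repeats. It had 172 and 271 normalised counts after transit and 680.4 and 608 in the controls, a log2 fold change of -1.53 (SE 0.34). RSRP1 (ENSG00000117616, chr1:25242237-25338213) encodes a nuclear protein rich in arginine and serine. It had 366 and 258 normalised counts after transit and 1357 and 816 in the controls, a log2 fold change of -1.80 (SE 0.45). With size factors neither gene had overlapping groups, and neither changed direction when any library was left out. The exons of RSRP1 share 426 bases with AL928711.1 on the same strand and up to 297 with TMEM50A and RHD on the other, and a transcript of AL031432.2 matches it over 425 bases at 98.8% identity.

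NPIPB12 (ENSG00000169203, chr16:29483642-29505999) belongs to the nuclear pore complex interacting protein family, which has many near-identical copies on the same chromosome. It had 27.7 and 13.5 normalised counts after transit and 58.7 and 144 in the controls, from 23, 13, 60 and 183 reads. Between the groups, the log2 fold change was -2.25 (SE 0.81), -2.83 without constriction replicate 1 and -1.47 without control replicate 2. Transcripts of 18 other genes matched one of its transcripts at 98% identity or more over at least 150 bases, the longest over 1815 bases. The part of these copies in its counts was not tested.

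The first group of higher members has constriction libraries within 3-fold of each other, and its 4 genes act in the mitochondrion, in glycan synthesis, at the cell surface and in secretion. All 4 had overlapping groups under TMM scaling, with log2 fold changes of 1.79 (MRPL46), 1.84 (CHST10), 2.23 (PEAR1) and 2.30 (UNC13D). That scaling moves apart constriction libraries that were close, so the overlap says little about these genes. MRPL46 (ENSG00000259494, chr15:88459476-88467419) encodes a protein of the large subunit of the mitochondrial ribosome. Its normalised counts were 711 and 525 after transit and 188 and 266 in the controls, with a log2 fold change of 1.44 (SE 0.33), or 1.21 without constriction replicate 1. Its fold change was the smallest of the 17 and its constriction libraries were the closest of the 17. Its exons share 724 bases with AC013489.1 on the same strand.

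CHST10 (ENSG00000115526, chr2:100391860-100417656) encodes the sulfotransferase that completes the HNK-1 carbohydrate on glycoproteins. It had 1006 and 433 normalised counts after transit and 152 and 220.3 in the controls, with a log2 fold change of 1.95 (SE 0.66), or 1.21 without constriction replicate 1. PEAR1 (ENSG00000187800, chr1:156893698-156916434) encodes a receptor with EGF-like repeats, known from platelets and endothelium. Its reads numbered 1111 and 498 in the constriction libraries and 105 and 293 in the control libraries, or means of 927 and 167 normalised counts, with a log2 fold change of 2.47 (SE 0.90), or 1.62 without constriction replicate 1. With size factors, both genes had every constriction library above every control library.

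UNC13D (ENSG00000092929, chr17:75827225-75844717) encodes Munc13-4, which primes vesicles for release, best known from the granules of cytotoxic lymphocytes. It had 687 and 308 normalised counts after transit and 40.1 and 145 in the controls, from 570, 298, 41 and 184 reads. UNC13D was the 1 member whose controls differed by over 3-fold. The log2 fold change was 2.41 (SE 1.08), 1.77 without control replicate 1 and 3.60 without control replicate 2. Over these 4 genes, constriction replicate 2 lay 2.31 to 3.33 times above the control mean.

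The other 13 higher members had more than 3-fold between their constriction libraries, and their log2 fold changes ran from 2.52 to 4.81 with SE from 1.05 to 2.34. Under TMM scaling these 13 ran from 1.29 (EFCAB13) to 3.11 (LSP1), with TMEM86B at 1.77 and PPP5D1 at 2.96. Without constriction replicate 1 their median was 1.04, from 0.13 to 2.25, and 4 of them were then under 2-fold. These members are grouped by that ratio, so intervals on it give its precision and are no test. For TMEM86B the ratio of replicate 1 to replicate 2 was 26.2, with a 95% interval of 18.1 to 39.5 (exact Clopper-Pearson on the split of reads). For PIP5KL1, the lowest of the 13, it was 4.29 (3.35 to 5.54). Reads carried no molecular identifiers, so intervals cover counting error only.

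**Figure D3:**
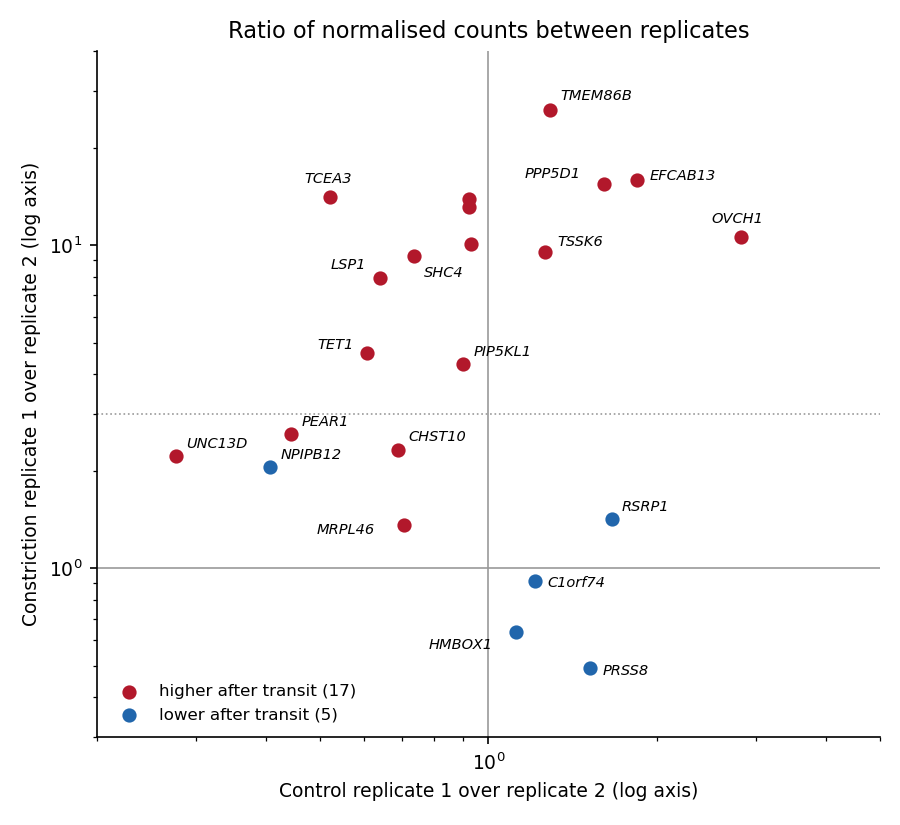
Ratio of normalised counts of replicate 1 to replicate 2 for each member, in the controls (horizontal, log axis) and in the constriction libraries (vertical, log axis); the dotted line marks 3-fold, and 3 genes in the cluster near a control ratio of 1 carry no name. Higher members (red) spread from 1.36 to 26.2 on the vertical axis and lower members (blue) from 0.491 to 2.06.

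Of the 13, 3 act in chromatin, in transcription or in signalling from surface receptors. TET1 (ENSG00000138336, chr10:68560656-68694482) encodes a dioxygenase that oxidises 5-methylcytosine in DNA. It had 465 and 100.4 normalised counts after transit and 22.5 and 37.1 in the controls, with a log2 fold change of 3.20 (SE 1.15). Replicate 2 alone was 3.37 times the control mean, and the log2 fold change without replicate 1 was 1.72. TCEA3 (ENSG00000204219, chr1:23381061-23424740) encodes a form of elongation factor TFIIS. It had 541 and 38.3 normalised counts after transit and 12.7 and 24.5 in the controls, with a log2 fold change of 3.89 (SE 1.95) that was 1.00 without replicate 1. SHC4 (ENSG00000185634, chr15:48823735-48963444), an adaptor of the Shc family for receptor tyrosine kinases, had 306 and 33.1 normalised counts after transit and 18.6 and 25.3 in the controls. This gave a log2 fold change of 2.90 (SE 1.60), and 0.57 without replicate 1.

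Genes of secreted or lipid-directed products were next. IGFBP4 (ENSG00000141753, chr17:40443461-40457731) encodes a secreted protein that binds insulin-like growth factors. It had 849 and 61.1 normalised counts after transit and 28.4 and 30.8 in the controls, with a log2 fold change of 3.90 (SE 1.89) that was 1.02 without replicate 1. TMEM86B (ENSG00000180089, chr19:55226639-55229264) encodes lysoplasmalogenase, an enzyme of ether lipid breakdown. It had 787 and 30.0 normalised counts after transit and 26.4 and 20.5 in the controls, with a log2 fold change of 4.06 (SE 2.34) that was 0.34 without replicate 1. Replicate 2 was 1.28 times the control mean, so almost the whole difference of TMEM86B lay in 1 library. Of its 2626 exonic bases, 2046 are shared with AC010327.5 on the same strand. PIP5KL1 (ENSG00000167103, chr9:127920879-127930797), a protein related to phosphatidylinositol phosphate kinases, had 364 and 84.9 normalised counts after transit and 36.2 and 40.3 in the controls. That is a log2 fold change of 2.52 (SE 1.05), and 1.13 without replicate 1, and the groups overlapped under TMM scaling. OVCH1 (ENSG00000187950, chr12:29412474-29497686) encodes ovochymase, a serine protease like PRSS8. It had 712 and 67.3 normalised counts after transit and 40.1 and 14.2 in the controls, with a log2 fold change of 3.79 (SE 1.84) that was 1.28 without replicate 1. The 2 serine proteases among the members thus lay on opposite sides.

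The next 3 genes are known from leukocytes or germ cells. LSP1 (ENSG00000130592, chr11:1852970-1892267) encodes an actin-binding protein of leukocytes. It had 740.1 and 93.2 normalised counts after transit and 14.7 and 22.9 in the controls, from 614, 90, 15 and 29 reads. The log2 fold change of LSP1 was 4.40 (SE 1.52), and 2.25 without replicate 1, the highest value of any member without that library. TSSK6 (ENSG00000178093, chr19:19512418-19515685) encodes a serine kinase of the testis. It had 1074 and 113 normalised counts after transit and 56.8 and 45.0 in the controls, with a log2 fold change of 3.52 (SE 1.63) that was 1.13 without replicate 1. SYCE1L (ENSG00000205078, chr16:77199397-77213215) is named for its likeness to a protein of the synaptonemal complex of meiosis. It had 732 and 72.5 normalised counts after transit and 41.1 and 44.2 in the controls, with a log2 fold change of 3.21 (SE 1.66) that was 0.75 without replicate 1. For all 3, both constriction libraries were above both controls.

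The last 3 higher members have little known function. PPP5D1 (ENSG00000230510, chr19:46480796-46601200) had 594 and 38.3 normalised counts after transit and 12.7 and 7.90 in the controls, from 493, 37, 13 and 10 reads. Its log2 fold change of 4.81 (SE 1.99) was the highest of the members, and it was 1.80 without replicate 1. SMIM11A (ENSG00000205670, chr21:34375480-34407866) encodes a small membrane protein. It had 1143 and 86.9 normalised counts after transit and 40.1 and 43.4 in the controls, with a log2 fold change of 3.85 (SE 1.85) that was 1.04 without replicate 1. A transcript of SMIM11A matches SMIM11B over 1857 bases at 100% identity. FAM243B also matches SMIM11A, at 98% identity or more over at least 150 bases. How reads that match several of these genes were counted is not stated. EFCAB13 (ENSG00000178852, chr17:47323290-47441312), named for EF-hand calcium-binding repeats, had 528 and 33.1 normalised counts after transit and 39.2 and 21.3 in the controls. With size factors it was the 1 member whose groups overlapped, since constriction replicate 2 lay between the controls, although each constriction library was above the control of its own number. Its log2 fold change was 3.17 (SE 2.02), and 0.13 without replicate 1.

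At the read minimum, the members just inside were PPP5D1 with 10 reads in its lowest library (95% Poisson interval 4.80 to 18.4) and NPIPB12 and TCEA3 with 13 each (6.92 to 22.2). Just outside were ID2, HIC1 and AL031281.2. ID2, a target of BMP signalling, had 9, 234, 2391 and 850 reads in constriction replicates 1 and 2 and control replicates 1 and 2, with a log2 fold change of -3.56. HIC1, a transcriptional repressor, had 983, 19, 35 and 7 reads and a log2 fold change of 4.85, which was -0.02 without constriction replicate 1. AL031281.2 had 526, 153, 5 and 14 reads and a log2 fold change of 5.47. The interval of PPP5D1 covers the smallest counts of all 3, which were 9, 7 and 5 reads, so the minimum does not separate them beyond counting error.

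Levels between genes are compared per length, in FPKM as deposited. Averaged over the 4 libraries, PRSS8 had the highest FPKM, 10.0, from 2.89 and 5.79 after transit and 19.2 and 12.2 in the controls. C1orf74 followed at 6.90, TSSK6 at 5.35, SYCE1L at 4.94 and IGFBP4 at 3.04. For TSSK6, SYCE1L and IGFBP4 the mean came mostly from constriction replicate 1, where FPKM was 17.8, 16.3 and 10.7, against at most 1.84, 1.59 and 0.756 in the other libraries. In the controls alone, mean FPKM was 15.7 for PRSS8, 9.86 for C1orf74, 4.46 for RSRP1 and 2.70 for HMBOX1, all above TSSK6 (0.850), SYCE1L (0.952) and IGFBP4 (0.373). The median member had an FPKM of 3.42 and 0.724 in the constriction libraries and 0.336 and 0.446 in the controls. An FPKM above 1 was reached by 20 members in constriction replicate 1, 10 in constriction replicate 2, and 4 and 7 in the controls. These counts have no share of the table or the neighbours beside them, so they cannot be read as particular to the members. Among the 1167 coding genes of the table that are not members, 96.1% and 94.9% were at 0 in the constriction libraries. The rule asked for at least 10 reads in every library, so no member could be at 0 and this contrast was fixed by it.

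**Figure D4:**
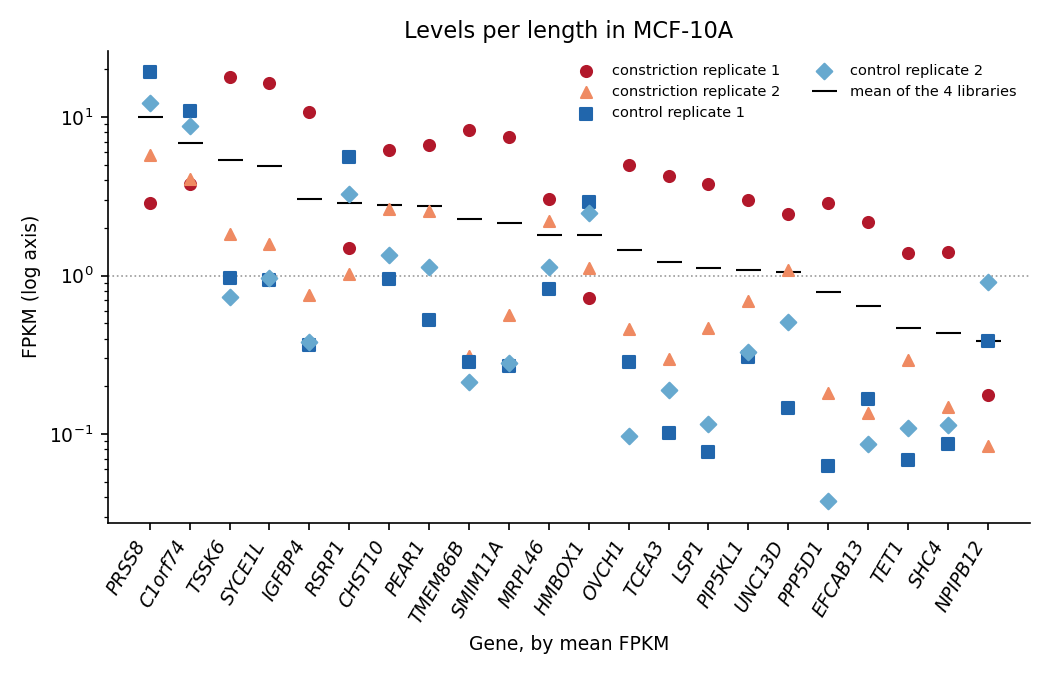
FPKM (log axis) of each member in the 4 libraries, ordered by the mean of the 4 (short bars); the dotted line marks an FPKM of 1. In the control libraries 4 and 7 members lie above it, against 20 in constriction replicate 1 and 10 in constriction replicate 2. No share of the table is set beside these counts.

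The members shared few features outside the rule. They lay on 12 chromosomes, with at most 4 on 1 chromosome. Their longest proteins had a median of 352 residues (68 for SMIM11A to 2136 for TET1), against 456 for the other coding genes of the table. Exonic length had a median of 4586 bases against 3953, and the GC content of the longest transcript a median of 53% against 52%. Exons of 8 members (36.4%) overlapped exons of a gene on the opposite strand, against 36.1% of the other coding genes of the table. Exons of 7 (31.8%) overlapped a gene on the same strand, against 19.6%. None of these differences was tested.

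A promoter window of 300 bases, from 250 before to 50 after the start site, was available in RefSeq (GRCh38.p14) for 13 of the 22 members. Both strands were searched for 5 motifs. TGACTCA, the site of AP-1, was in 2 of 13 (15.4%; TSSK6 and SHC4) against 5.13% of 27305 promoters, and TGACGTCA, the cyclic AMP response element, was in 0 of 13 against 1.92%. GGGCGG, the core of the Sp1 site, was in 5 (38.5%) against 43.4%, CCAAT in 3 (23.1%) against 35.4%, and TATAAA in 1 (7.69%) against 12.3%. With 13 windows these shares are a description, and a match is a run of letters, not a measured site.

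Promoters are shown for 3 higher members and 1 lower member, as examples of where the motifs lie. They were chosen after the search from the windows with a motif, and 6 of the 13 windows held none of the 5. Capitals mark the motifs above, on either strand.
IGFBP4 (GRCh38.p14 chr17:40443200-40443499, + strand): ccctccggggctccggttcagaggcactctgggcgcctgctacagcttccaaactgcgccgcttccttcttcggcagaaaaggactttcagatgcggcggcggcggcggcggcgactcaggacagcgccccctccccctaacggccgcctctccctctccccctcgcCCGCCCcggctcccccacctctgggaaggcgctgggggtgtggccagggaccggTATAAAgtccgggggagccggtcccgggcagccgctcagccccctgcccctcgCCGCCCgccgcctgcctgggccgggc
TSSK6 (GRCh38.p14 chr19:19515499-19515798, - strand): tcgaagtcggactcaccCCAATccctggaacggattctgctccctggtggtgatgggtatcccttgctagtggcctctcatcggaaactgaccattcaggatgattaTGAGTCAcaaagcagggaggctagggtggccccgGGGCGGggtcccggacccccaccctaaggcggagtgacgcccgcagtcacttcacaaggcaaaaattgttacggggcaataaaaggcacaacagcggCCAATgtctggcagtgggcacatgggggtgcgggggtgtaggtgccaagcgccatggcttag
PEAR1 (GRCh38.p14 chr1:156893468-156893767, + strand): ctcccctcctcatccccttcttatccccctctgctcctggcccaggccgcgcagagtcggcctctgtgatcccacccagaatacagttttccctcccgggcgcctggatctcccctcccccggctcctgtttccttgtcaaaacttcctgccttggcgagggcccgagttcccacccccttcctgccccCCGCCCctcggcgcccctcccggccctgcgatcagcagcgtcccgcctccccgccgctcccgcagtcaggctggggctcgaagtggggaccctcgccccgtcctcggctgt
RSRP1 (GRCh38.p14 chr1:25338205-25338504, - strand): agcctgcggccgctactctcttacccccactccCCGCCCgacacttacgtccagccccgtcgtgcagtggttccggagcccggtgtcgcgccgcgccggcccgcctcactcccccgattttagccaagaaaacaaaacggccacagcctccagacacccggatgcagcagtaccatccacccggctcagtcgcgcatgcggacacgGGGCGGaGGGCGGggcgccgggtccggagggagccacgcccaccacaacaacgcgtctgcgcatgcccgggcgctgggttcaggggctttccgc
The IGFBP4 window held TATAAA beginning 29 bases before the start site and GGGCGG at 2 positions. The TSSK6 window held TGACTCA beginning 143 bases before the start site. The PEAR1 window held GGGCGG 61 bases before the start, and the RSRP1 window held it at 3 positions. GGGCGG was in 4 windows of higher members and 1 of a lower member among the 13, so most windows lacked it.

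Outside MCF-10A, 1 of the 22 members was listed: SMIM11A, 1 of 381 genes (0.262%) of the MDA-MB-231 table, while 0 of the 97 genes of the LM2 table were members. These are 4.55% and 0% of the members, beside 1.79% and 0.448% of the genes in the MCF-10A table. A gene missing from those tables has no value there, so the other 21 members have no values in the cancer lines. In MDA-MB-231, SMIM11A had 18.6 and 9.24 normalised counts after transit and 348 and 24.9 in the controls. Its log2 fold change there was -3.65 (SE 1.93), and -0.80 without control replicate 1, so that value rested on 1 control library.

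Of 722 genes in 24 lists of pathways and cell types, 48 were in the MCF-10A table and 2 were members, PRSS8 and TET1. PRSS8 was in the list of 54 epidermal differentiation genes, of which 9 were in the table, all lower after transit, and 8 of those had 0 reads in both constriction libraries. Of all genes in the table, 94.5% were lower and 89.6% had 0 reads in both, so these counts were near the background. It was also in the epithelial list, where the table held 2 of 33 genes, PRSS8 and CLDN4, both lower. TET1 was the 1 of 35 chromatin regulators in the table. The other 21 lists held no member. Of 15 markers of basal breast epithelium, 0 were in the table, so the identity of the line could not be read from it. Markers of other cell types in the table were KRT19 (1 of 8 luminal markers), PDGFRB (1 of 7 fibroblast markers), ITGAM (1 of 7 leukocyte markers), PECAM1 (1 of 4 endothelial markers), SNAI1 (1 of 8 mesenchymal markers) and MYH11 (1 of 4 muscle markers). The wider lists also held CD74 (leukocyte genes) and PROM1 (luminal genes). After transit MYH11 had 0 and 1 reads, CD74 had 1 and 0, and the others had 0 in both libraries, as did 89.6% of the table. Markers that are not in the table have no value. Whether other cell types had a part in the members' values was not tested.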

How the data were processed

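RNA of 12 libraries, 2 constriction and 2 control in each of 3 lines, was processed by the authors with fastp, HISAT2 2.0.5 and featureCounts 1.5.0-p3 on GRCh38. The deposited tables give, per the file headers, read counts, normalised counts (signal; the authors used DESeq2 1.20.0 size factors within each line) and FPKM. Their fold changes, p-values and ontology statistics compare the same libraries and were not used for values; the ontology terms served to choose members. Fold changes used a pseudocount of 1. Totals were recovered from counts, lengths and FPKM. Calculations used Python 3.11.15, pandas 2.3.3, R 4.3.3 with edgeR 4.0.16, blastn 2.17.0 and GENCODE 29, whose positions and lengths matched for 22 of 22 members. Genes were named by rule: the 10 largest increases and up to 10 decreases without overlap, the 5 highest FPKM, members of a list or of another line's table, the 3 on either side of the read minimum, and those over 3-fold apart between replicates (19 members). CHST10, MRPL46 and PEAR1 were outside it and were given values after these were seen. Members and lists were chosen with earlier results of these data known.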

Additional observations from a re-analysis of the deposited data

Results flagged for a closer look

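SMIM11A lay on opposite sides of the controls in 2 cell lines. In MCF-10A both constriction libraries (1143 and 86.9 normalised counts) were above both controls (40.1 and 43.4). In MDA-MB-231 both (18.6 and 9.24) were below both controls (348 and 24.9). The log2 fold changes, 3.85 and -3.65, differed by 7.50, and the difference was not tested. Each value was much smaller without 1 library: 1.04 without MCF-10A constriction replicate 1, and -0.80 without MDA-MB-231 control replicate 1. SMIM11B is identical to SMIM11A over 1857 bases, and FAM243B matches SMIM11A at 98% identity or more over at least 150 bases. The part of SMIM11B and FAM243B in the counts was not tested.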

How the results depend on the processing

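The number of lower members was 5 under every change of scaling, pseudocount, averaging or library that was tried with the same 22 members, and 0 of the 22 fold changes reversed. The median log2 fold change of 3.03 was 1.19 from deposited FPKM, where a pseudocount of 1 is large beside the values. Of the 22 members, 16 were then at least 2-fold different. That count has no share of the table beside it, so it cannot be read as particular to the members. Leaving out 1 library gave 1.03 to 3.83, with 14 of 22 genes moving by more than their replicate spread when constriction replicate 1 was left out. TMM factors, which were 7.66 and 0.245 for the constriction libraries, were computed over the selected genes of the table and shifted its genes by a median of -0.45. The members' median was then 1.84, 14 did not overlap and 19 were at least 2-fold different. Groups came to overlap for 8 members (C1orf74, CHST10, HMBOX1, MRPL46, PEAR1, PIP5KL1, PRSS8 and UNC13D) and came apart for EFCAB13. The 3 under 2-fold were C1orf74, HMBOX1 and PRSS8, and 2 of the 5 lower members, NPIPB12 and RSRP1, stayed apart. Factors so unlike move apart constriction libraries that were close, so these calls do not rank the members. Scaling to library totals, with the same pseudocount on smaller values, shifted genes of the table by a median of 3.51, and the members' median was 2.24.

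The read minimum changed the results most. At 50 reads, 8 members were left, of which 8 did not overlap and 8 were at least 2-fold different, with a median of 0.07 over 4 higher and 4 lower. With no minimum there were 978 members, 936 lower, 956 not overlapping and 978 at least 2-fold different, and the median reversed to -4.29; the minimum removes genes with 0 reads after transit. Over all genes of the table, 94.5% were lower, 96.8% did not overlap and 100% were at least 2-fold different. The counts with no minimum were near these shares, as were those not overlapping or at least 2-fold different at 50 reads. A minimum of 5 gave 25 members and a minimum of 20 gave 16. Each library set against the control of its own number gave the same direction in both pairs for 22 of 22 members. EFCAB13 was included (log2 fold change 2.17). Against the other control this held for 21 of 22, a pairing chosen after seeing the data. Groups that do not overlap, as in 96.8% of the table and 83.0% of the 53 neighbours, give the same direction in either pairing. The pair counts have no share of the table or the neighbours beside them, so they cannot be read as particular to the members.

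At the read minimum, a count of 10 reads has a 95% Poisson interval of 4.80 to 18.4, so depth leaves the membership of the lowest genes uncertain.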
